A study of Homo sapiens with 18 samples.

Results

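The comparison described here is the difference between 2 keratinocyte lines in how their transcripts changed 6 h after a scratch wound. HaCaT is a spontaneously immortal line of skin keratinocytes, and TIGK is a line of gingival (oral) keratinocytes made immortal with telomerase. Each line was grown in culture and sampled unscratched, given as 0 h, and 6 h and 24 h after the cell layer had been scratched. RNA was sequenced in 18 libraries, 3 for each line and time, and the contrast takes 12 of them, the 4 groups of HaCaT at 0 h, HaCaT at 6 h, TIGK at 0 h and TIGK at 6 h. For every gene, the change of TIGK from 0 h to 6 h was subtracted from the change of HaCaT over the same hours. A positive line difference means that the HaCaT change was the higher of the 2, and a negative one that it was the lower. Of the 58735 genes in the count table, 17409 had enough reads to be tested, and these form the set described. The design sets both lines' responses to injury side by side, since oral tissue is known to heal faster than skin. The 6 h groups have no unscratched counterpart of the same age, so the scratch and the added hours in culture cannot be told apart. Each line is 1 cell line, so the contrast compares these lines and not skin with gum in general.

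Keratinocytes at a wound edge loosen their anchorage, migrate over new matrix and later divide and restore the barrier. Laminin-332, whose chains include LAMA3 and LAMB3, is the adhesion protein that these cells deposit as they move, fibronectin is a main part of the provisional matrix they cross, and integrins are the receptors that hold them to it. Transforming growth factor beta is released at wounds and acts through SMAD proteins, which switch on matrix genes together with their own inhibitors. The AP-1 factors of the FOS and JUN families respond early to stress and growth signals, and many matrix proteases are among their targets.

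Levels are given as CPM, read counts scaled to the TMM-adjusted library size, in the order of the letters A, B and C that the columns of the count table carry. Changes are log2 fold changes ± SE from edgeR's quasi-likelihood test, and a gene was called where the Benjamini-Hochberg adjusted p over all 17409 genes was under 0.05. The 12 libraries held between 15690679 and 25011331 counted reads. The TIGK libraries of letter C stood apart at both times, with 26246 and 25161 genes detected against 21164 to 22799 in the other 10. They were also the deepest, at 25011331 and 18039684 counted reads, and the part of depth in the genes detected was not tested. Mitochondrial genes held 5.08% and 4.98% of their reads and 5.84% to 8.08% in the other 10. All keratinocyte markers checked (8 of 8) had reads in every library. Their summed level was 33990 to 35244 CPM in TIGK at 0 h and 38583 to 39507 CPM at 6 h, which did not overlap, and 38496 to 39949 CPM and 35469 to 38498 CPM in HaCaT. Immune markers were near 0 beside these, at 18.6 to 20.3 CPM in TIGK at 0 h, 23.5 to 26.8 CPM at 6 h, again without overlap, and at most 3.28 CPM in HaCaT. Most of this TIGK sum was 1 gene, CSF1R, with means of 13.7 CPM at 0 h and 20.6 CPM at 6 h. Of the 8 immune markers, 3 to 5 were at 0 in a TIGK library at 0 h and 5 to 6 at 6 h. The 3 that were tested had a median TIGK change of -0.26. The part of these shifts in the results was not tested. In bulk RNA, fewer cells of a type and less RNA per cell cannot be told apart.

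The promoters of LAMB3, FN1 and LAMA3 are shown because these were the named genes with the lowest adjusted p in the list with the most calls, integrins and wound matrix, and all 3 genes rose in TIGK. The window searched is the 250 bases before the first start that RefSeq's table lists for the gene (GRCh38.p14), read 5′ to 3′ on the strand of the gene. All 3 of these starts lie inside the span that the count table gives for the gene. The LAMA3 start lies far inside and is an internal start, since the LAMA3 span runs from 23689443 to 23956222. The last 41 bases of the LAMB3 window, 104 of the FN1 window and 180 of the LAMA3 window fall in an exon of the gene in GENCODE's annotation. Those bases are not printed. The printed part of LAMB3 lies at chr1:209652467-209652675 (minus strand), FN1 at chr2:215436173-215436318 (minus strand) and LAMA3 at chr18:23872770-23872839 (plus strand). Capitals mark matches on either strand to the AP-1 motif TGANTCA, to the core TGACG of the cyclic AMP response element (CRE core) and to the CArG box of serum response factor.
LAMB3: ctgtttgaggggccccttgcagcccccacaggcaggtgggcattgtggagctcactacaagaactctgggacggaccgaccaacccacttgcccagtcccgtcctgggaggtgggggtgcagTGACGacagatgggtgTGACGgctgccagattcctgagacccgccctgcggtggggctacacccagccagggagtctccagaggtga
FN1: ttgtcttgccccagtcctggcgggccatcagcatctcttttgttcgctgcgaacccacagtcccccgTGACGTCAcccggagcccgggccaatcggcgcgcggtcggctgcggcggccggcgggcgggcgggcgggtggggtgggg
LAMA3: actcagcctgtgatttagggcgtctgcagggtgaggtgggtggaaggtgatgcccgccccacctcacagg
The LAMA3 window held 2 AP-1 matches, TGACTCA at 125 to 119 and TGAGTCA at 69 to 63 bases before the start, both in its exonic part. The LAMB3 window held 2 CRE cores, and the FN1 window held 2 that overlap on opposite strands. No CArG box was found in these windows. Among the windows of the same length for 27305 genes, 6.6% held the AP-1 motif, 21.7% the CRE core and 1.14% the CArG box. A match is a description of the letters and shows no binding.

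The lines differed in 131 genes, 0.752% of those tested. The change was higher in HaCaT for 38 genes (0.218%) and lower for 93 (0.534%), and 126 of the 131 are protein-coding. At an unadjusted p under 0.05 the number was 1814. In HaCaT alone 35 genes changed from 0 h to 6 h (0.201%), 24 up (0.138%) and 11 down (0.0632%), and this count was 4 without HaCaT 0 h B and 107 with DESeq2. In TIGK alone 630 genes changed (3.62%), 435 up (2.5%) and 195 down (1.12%). The differences were mostly moderate, and 34 of the 131 reached 1 log2 unit, 16 of them lower in HaCaT and 18 higher.

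Most called differences were genes that changed in TIGK and did not pass the test in HaCaT. Of the 93 lower genes, 77 rose in TIGK only, 2 rose in both lines, 5 fell in HaCaT only and 9 passed neither test. Of the 38 higher genes, 29 fell in TIGK only, 4 rose in HaCaT only, 1 fell in TIGK and rose in HaCaT, and 4 passed neither test. The gene that moved in opposite directions was SERPINE2. The calls in a class rest on tests within each line, in HaCaT on the count that moved most between fits, and only the line difference tests the lines against each other.

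**Figure D1:**
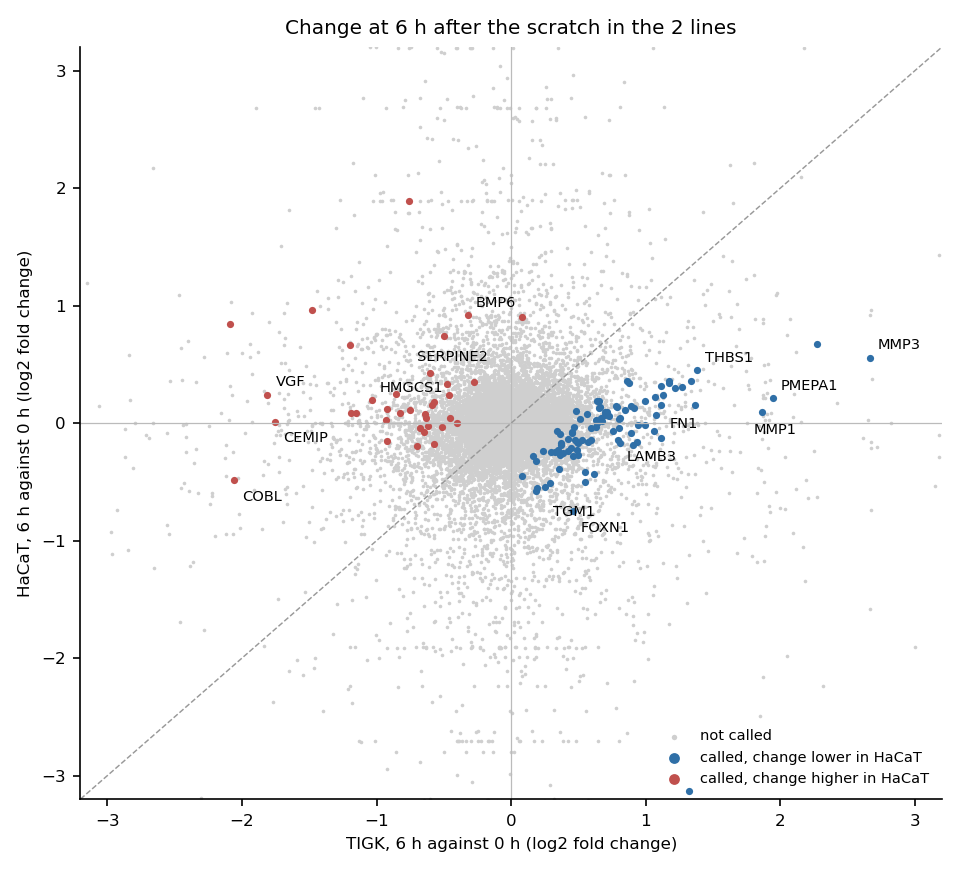
Change from 0 h to 6 h in TIGK (horizontal axis, log2 fold change) against the change in HaCaT (vertical axis, log2 fold change) for every gene tested, with the 131 called genes in colour and the line of equal change dashed. Called genes spread widely along the TIGK axis and lie mostly close to 0 on the HaCaT axis, and 139 genes, 4 of them called, fall outside the axes.

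The 435 genes that rose in TIGK had a median change of 0.49 log2 units there and 0.10 in HaCaT, where 316 of them lay above 0. The 195 that fell in TIGK had a median of -0.55 there and -0.06 in HaCaT, where 130 lay below 0. Over these 630 genes, the Pearson correlation of the changes was 0.293 and the slope of HaCaT on TIGK was 0.123, as a description across genes, which are not independent replicates. The lines' changes share no library. Over all genes tested the correlation was 0.0116. The 630 genes were chosen by their TIGK test, which favours large changes in TIGK and not in HaCaT. The medians and the slope therefore do not compare the sizes of the responses evenly. Chosen the other way, the 24 genes that rose in HaCaT had a median of 0.69 there and 0.54 in TIGK. For the 11 that fell in HaCaT the medians were -0.58 there and 0.02 in TIGK.

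The levels that the lines started from are given beside these calls. Among the 79 genes that rose in TIGK and were called lower in HaCaT, the HaCaT mean at 0 h was above the TIGK mean at 0 h in 53 and above the TIGK mean at 6 h in 38. Among all 435 genes that rose in TIGK these counts were 280 and 189, and among all 17409 genes 8415 and 8500. LAMB3, ITGA2, MMP1 and PMEPA1 are such genes, and their HaCaT level before the scratch exceeded the level that TIGK reached after it. Among the 30 genes that fell in TIGK and were called higher, the HaCaT mean at 0 h was above the TIGK mean at 0 h in 15 and above that at 6 h in 19, against 95 and 132 of all 195 genes that fell in TIGK. The TIGK levels compared are also among the values that made these genes called. The part that starting level plays in the differences was not tested.

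Of the transforming growth factor beta and activin targets, 3 of 18 were called lower in HaCaT, where 0.534% of all genes were. PMEPA1, at chr20:57648392-57711536, is a membrane protein that restrains SMAD signalling. Its TIGK libraries measured 26.9, 28.2 and 19.5 CPM at 0 h and 108, 102 and 75.2 CPM at 6 h. The HaCaT libraries measured 378, 335 and 419 CPM at 0 h and 462, 441 and 409 CPM at 6 h, so the HaCaT times overlapped while all HaCaT libraries lay above every TIGK library. The line difference was -1.73 ± 0.17 (adjusted p = 2.64e-06), with a TIGK rise of 3.84-fold and a HaCaT change of 0.21 ± 0.11 (adjusted p = 0.713). SKIL, a SMAD co-repressor, measured 17.8, 15.7 and 15.8 CPM in TIGK at 0 h and 34.7, 31.9 and 28.1 CPM at 6 h. In HaCaT its times overlapped, with 33.6, 29 and 29.8 CPM at 0 h and 29.7, 31.8 and 30 CPM at 6 h. The SKIL line difference was -0.96 ± 0.15 (adjusted p = 0.00107).

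SMAD7, the inhibitory SMAD, was the other called gene of this list, at -0.97 ± 0.23 (adjusted p = 0.0452). Its means were 9.93 ± 2.57 and 14.6 ± 4.53 CPM in TIGK and 56 ± 3.92 and 41.9 ± 2.88 CPM in HaCaT (SD, n = 3), and neither line passed its own test. None of the 18 was called higher, and 2 were called lower without any 1 of 10 libraries (all but TIGK 0 h A and TIGK 6 h C). The median line difference was -0.24 against 0.01 over all genes tested. In TIGK 5 members rose and 1 fell, against 2.5% and 1.12% of all genes. In HaCaT 1 rose and 1 fell, against 0.138% and 0.0632%. INHBA, a subunit of activin, rose in both lines, by 1.13 in TIGK and 0.70 in HaCaT, and its line difference of -0.43 ± 0.20 was not called (adjusted p = 0.432).

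**Figure D2:**
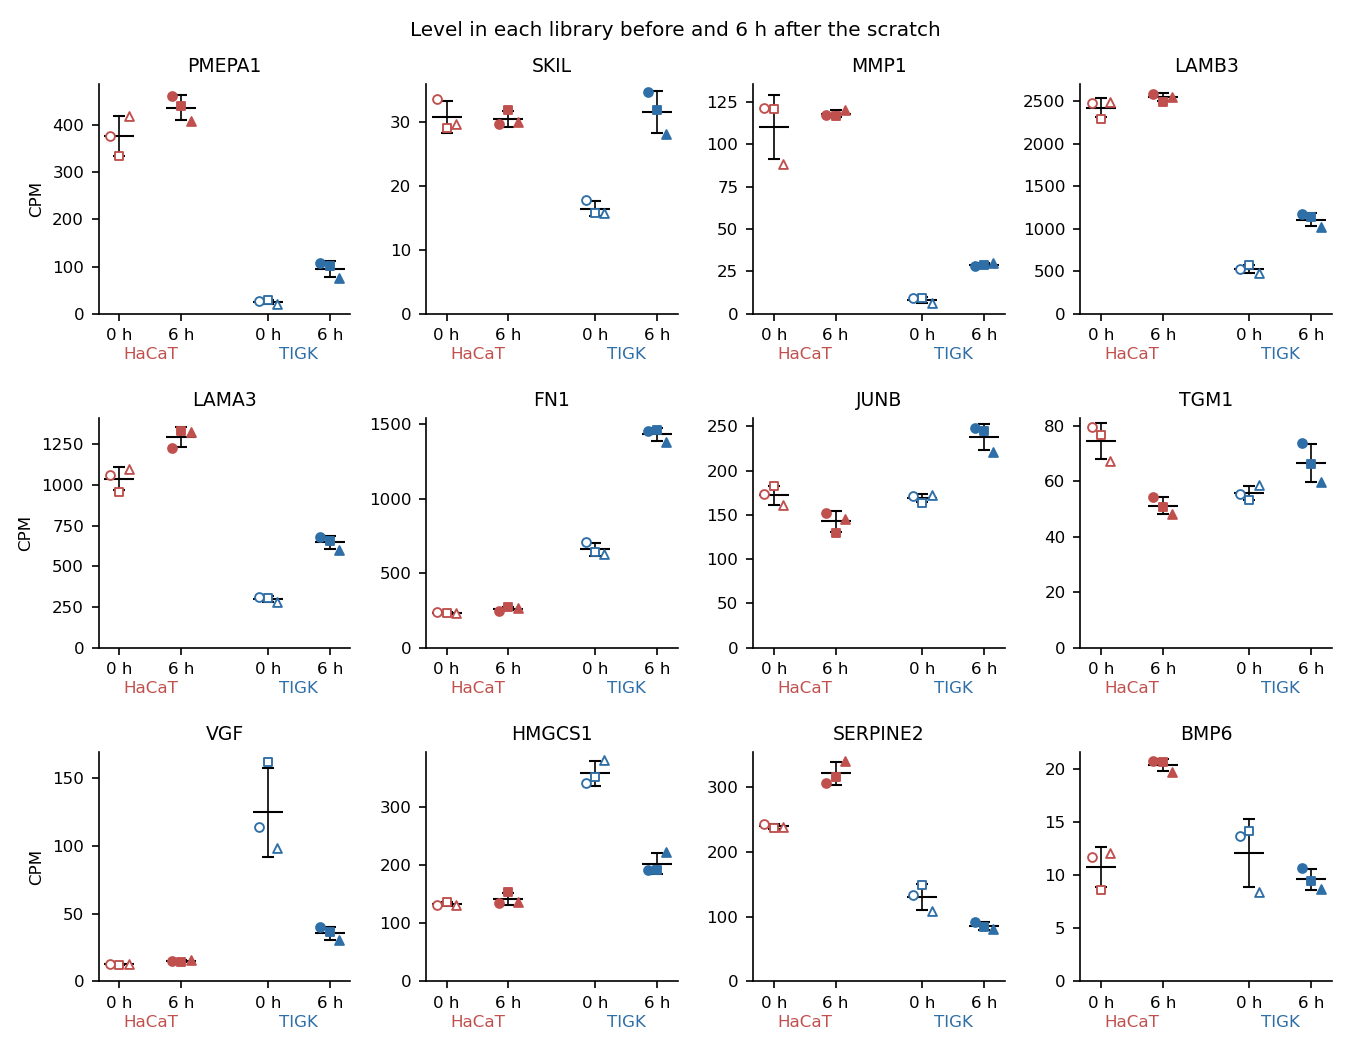
Level in CPM (vertical axes, each from 0) of 12 genes in each library at 0 h (open) and 6 h (filled) in HaCaT (red) and TIGK (blue), with the mean and SD of 3 libraries in black and a circle, square and triangle for letters A, B and C. PMEPA1, LAMB3, LAMA3 and FN1 separate the times in TIGK, VGF and HMGCS1 fall there, and BMP6 rises in HaCaT.

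Laminin chains rose in TIGK, where all libraries at 6 h lay above all at 0 h. LAMB3, the beta chain, at chr1:209614870-209652466, measured 529.8, 572 and 475 CPM in TIGK at 0 h and 1167, 1132 and 1016 CPM at 6 h. In HaCaT it measured 2483, 2290.2 and 2494 CPM at 0 h and 2583, 2492 and 2553 CPM at 6 h, and these overlapped. Between the lines, the difference was -1.002 ± 0.10 (adjusted p = 3.5e-06). The LAMA3 window with the AP-1 matches given above lies at an internal start, while the LAMA3 counts cover the whole gene. LAMA3, the alpha chain, measured 312, 308 and 278 CPM in TIGK at 0 h and 680.3, 659 and 602 CPM at 6 h. Its HaCaT libraries, 1062, 958 and 1100.3 CPM at 0 h and 1228, 1335 and 1327 CPM at 6 h, did not overlap either, but the HaCaT change of 0.32 ± 0.07 was not called (adjusted p = 0.0884). The LAMA3 line difference was -0.79 ± 0.11 (adjusted p = 0.000176).

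FN1, at chr2:215360440-215436172, encodes fibronectin, the main protein of the provisional matrix. Its TIGK libraries measured 712, 643 and 631 CPM at 0 h and 1455, 1461 and 1381 CPM at 6 h, against 242, 231 and 231 CPM at 0 h and 248, 271 and 263 CPM at 6 h in HaCaT. Here the TIGK level was the higher at both times, and the line difference was -0.96 ± 0.12 (adjusted p = 5.21e-05). The HaCaT times did not overlap, but the HaCaT change of 0.15 ± 0.08 was not called (adjusted p = 0.726). Among the receptors, ITGA2, the collagen-binding integrin chain, had a line difference of -0.89 ± 0.14 (adjusted p = 0.00118), from 25.8 ± 0.845 to 56.3 ± 1.53 CPM in TIGK and from 219 ± 31.8 to 259 ± 31.9 CPM in HaCaT. ITGB6, a chain of the integrin that activates latent transforming growth factor beta, differed by -0.92 ± 0.14 (adjusted p = 0.00107). THBS1, the matrix protein thrombospondin 1, differed by -0.93 ± 0.14 (adjusted p = 0.000901), with means of 737 ± 73.9 and 1919 ± 102 CPM in TIGK and 1432 ± 131 and 1957 ± 98.5 CPM in HaCaT (SD, n = 3). The HaCaT change of THBS1 was 0.45 ± 0.10 and was not called (adjusted p = 0.0579).

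Of the 19 integrin and wound matrix genes tested, 6 were called lower in HaCaT, where 0.534% of all genes were, and 0 higher, the largest number of calls in any of the 30 lists. In TIGK 11 members rose, against 2.5% of all genes, and 0 fell. In HaCaT 0 passed the test, where 0.201% of all genes did, which does not show that the members stayed unchanged. The members' median line difference was -0.20. A further 5 members rose in TIGK and were not called between the lines. ITGA6, a chain of the hemidesmosome integrin, is one of them, at -0.34 ± 0.12 (adjusted p = 0.273). The others were ITGA5, ITGA3, SDC4 and CD44, with adjusted p of 0.605, 0.488, 0.5 and 0.697 for the line difference. These 5 were chosen for mention after their values were seen. In the mesenchymal transition list FN1 was the called gene among 14 tested, against 0.752% of all genes called.

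Fibroblast markers, whose genes include matrix proteins, were low next to those of keratinocytes and differed between the lines. Their summed level was 237 to 274 CPM in TIGK at 0 h and 241 to 289 CPM at 6 h, and 24.9 to 29.1 CPM and 21.02 to 23.8 CPM in HaCaT. Of the 8 markers, 1 to 2 were at 0 in a TIGK library and 3 to 5 in a HaCaT library. COL1A1, a collagen chain and the member with the highest level, measured 156, 144 and 155 CPM in TIGK at 0 h and 167, 175 and 162 CPM at 6 h, and 28.1, 23.8 and 28 CPM at 0 h and 22.6, 20.7 and 21.3 CPM at 6 h in HaCaT. Its times did not overlap in either line, and its line difference was -0.45 ± 0.12 (adjusted p = 0.0769). The ranges of the summed level overlapped between the times in TIGK and did not in HaCaT, where 6 h was the lower. All 5 markers tested had a line difference below 0, against 8359 of all 17409 genes, with a median of -0.45. In the line difference 0 of the 5 were called, against 0.752% of all genes. Within the lines 0 were called, against 3.62% of all genes in TIGK and 0.201% in HaCaT. With so few markers these counts do not set them apart from all genes. The part of these markers in the matrix differences was not tested.

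Matrix proteases and their inhibitors moved in both directions. MMP1, at chr11:102789920-102798160, cuts fibrillar collagen and is the collagenase that migrating keratinocytes make. It measured 8.97, 9.12 and 6.13 CPM in TIGK at 0 h and 27.9, 28.9 and 29.6 CPM at 6 h, against 122, 121 and 88.4 CPM at 0 h and 117, 117 and 120.4 CPM at 6 h in HaCaT. The HaCaT times overlapped, and the line difference was -1.76 ± 0.21 (adjusted p = 2.88e-05). MMP3, the stromelysin that cuts several matrix proteins, measured 0.492, 1.33 and 0.643 CPM in TIGK at 0 h and 5.19, 6.2 and 4.09 CPM at 6 h. The HaCaT libraries measured 18.6, 12.3 and 23.1 CPM at 0 h and 27.9, 24.4 and 27.1 CPM at 6 h. The MMP3 line difference was -2.11 ± 0.40 (adjusted p = 0.00711), and on the log2(FPKM + 1) scale, where low levels count for less, limma gave -0.79 with an adjusted p of 0.188.

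SERPINE2, at chr2:223975112-224039319, encodes protease nexin 1, an inhibitor of thrombin and plasminogen activators. It fell in TIGK from 133, 148 and 108 CPM to 91.6, 83.5 and 81 CPM and rose in HaCaT from 243, 236 and 237 CPM to 306, 316 and 340.0 CPM. The times did not overlap in either line. The lines differed by 1.03 ± 0.13 (adjusted p = 6.82e-05), with changes of -0.60 ± 0.09 in TIGK and 0.42 ± 0.09 in HaCaT. TFPI2, another inhibitor of serine proteases, rose in HaCaT from 15 ± 2.04 to 28 ± 1.74 CPM, and in TIGK measured 61.3 ± 8.57 and 64.8 ± 4 CPM. Its line difference was 0.82 ± 0.19 (adjusted p = 0.0313). Of 22 members, 2 were called lower (MMP1 and MMP3) and 2 higher, against 0.534% and 0.218% of all genes, and the median was -0.08.

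Of the immediate-early and AP-1 genes, 2 of 27 were called, both lower in HaCaT, where 0.534% of all genes were. JUNB, an AP-1 subunit, measured 172, 164 and 172 CPM in TIGK at 0 h and 249, 244 and 221 CPM at 6 h. In HaCaT it measured 174, 182 and 161 CPM at 0 h and 152, 129.9 and 146 CPM at 6 h, so the libraries at 6 h lay above those at 0 h in TIGK and below them in HaCaT. The line difference was -0.77 ± 0.11 (adjusted p = 0.000337), and the HaCaT change of -0.27 ± 0.08 was not called (adjusted p = 0.186). FOSL2, another AP-1 subunit, had the same arrangement, with 218, 167 and 198 CPM at 0 h and 268, 258 and 235 CPM at 6 h in TIGK and 179, 172 and 172 CPM at 0 h and 137, 154 and 149 CPM at 6 h in HaCaT. The lines differed in it by -0.63 ± 0.13 (adjusted p = 0.0169). It was no longer called without TIGK 0 h B, TIGK 6 h A, TIGK 6 h B, HaCaT 0 h A or HaCaT 6 h A, with an adjusted p of 0.0679 at the highest.

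In TIGK 13 of the 27 rose, against 2.5% of all genes, in HaCaT 4 rose, against 0.138%, and 0 fell in either line. ATF3, FOSL1 and KLF6 rose in both lines, and NR4A1 rose in HaCaT. None of these 4 was called between the lines, with line differences of 0.50 ± 0.23, -0.23 ± 0.16, -0.32 ± 0.13 and 0.70 ± 0.27, and they were chosen for mention after their values were seen. The list's median change was 0.48 in TIGK and 0.28 in HaCaT.

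Cholesterol synthesis genes had more members called higher in HaCaT than any other of the 30 lists. They were 3 of 22, against 0.218% of all genes, with 0 lower and a median of 0.20. The number called was 1 to 4 without 1 library, lowest without HaCaT 0 h C and without HaCaT 6 h C, and 5 with DESeq2. Over all genes 22 to 68 were called higher without 1 library and 77 with DESeq2, against 38 in the main fit. Sterol-sensing transcription factors switch these enzymes on when cells are short of cholesterol. In TIGK 9 of the 22 fell, against 1.12% of all genes, and in HaCaT 0 passed the test, where 0.201% of all genes did. HMGCS1, at chr5:43289395-43313512, makes the precursor of mevalonate. It measured 341, 352 and 382 CPM in TIGK at 0 h and 193, 192 and 223 CPM at 6 h, and 131, 137 and 132 CPM at 0 h and 135, 154 and 137 CPM at 6 h in HaCaT, where the times overlapped. Between the lines, the difference was 0.91 ± 0.11 (adjusted p = 2.88e-05).

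MSMO1, a methylsterol oxidase later in the pathway, fell in TIGK from 193, 183 and 167 CPM to 119, 119 and 109 CPM. Its line difference was 0.57 ± 0.12 (adjusted p = 0.0158), and its adjusted p rose to 0.0661 without HaCaT 0 h C and 0.0543 without HaCaT 6 h C. INSIG1, which holds back the sterol-sensing factors, differed by 0.51 ± 0.11 (adjusted p = 0.0313).

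**Figure D3:**
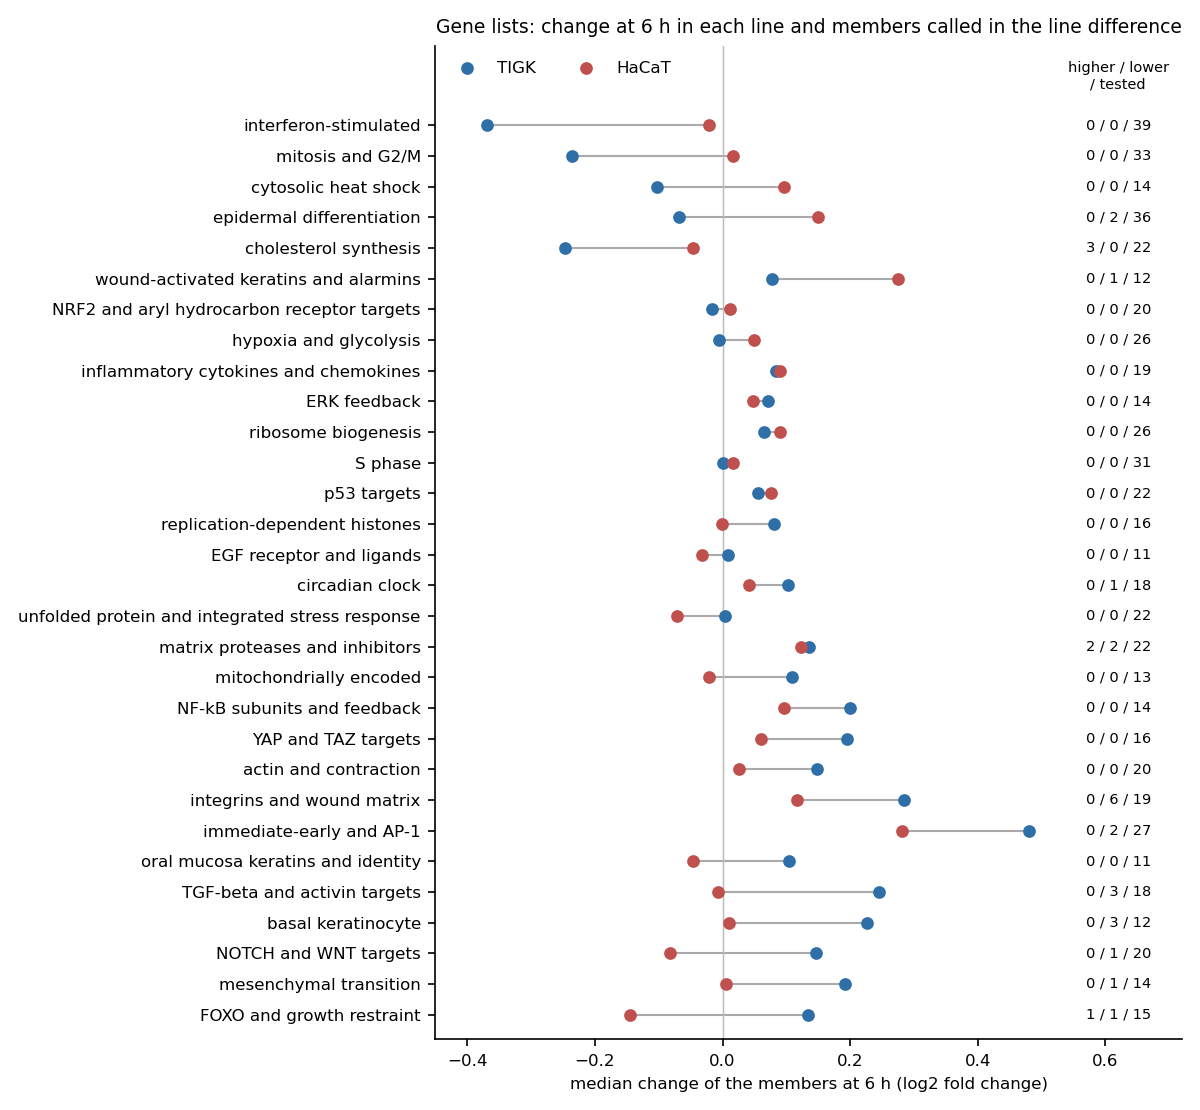
Median change from 0 h to 6 h (horizontal axis, log2 fold change) of the members of 30 gene lists in TIGK (blue) and HaCaT (red), ordered by the median line difference, with the number of members called higher, called lower and tested at the right. Integrins and wound matrix has 6 of 19 called lower and cholesterol synthesis 3 of 22 called higher, and most lists have 0 or 1 called member.

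Genes of epidermal state were called lower for different patterns in the lines. FOXN1, a transcription factor that starts keratinocyte differentiation, fell in HaCaT from 21, 22.8 and 17.5 CPM to 12.1, 13.3 and 11 CPM. In TIGK it measured 15.5, 12.6 and 10.6 CPM at 0 h and 17.2, 20.9 and 14.7 CPM at 6 h, which overlapped. The lines differed by -1.21 ± 0.21 (adjusted p = 0.004). TGM1, the transglutaminase that cross-links the cornified envelope, fell in HaCaT from 79.6, 76.8 and 67.3 CPM to 54.2, 50.8 and 48.3 CPM, and the TIGK libraries measured 55.4, 53.4 and 58.6 CPM at 0 h and 73.6, 66.2 and 59.7 CPM at 6 h. The lines differed in it by -0.80 ± 0.13 (adjusted p = 0.00213). These were the 2 called members of the 36 epidermal differentiation genes, where 0.534% of all genes were called lower. The list's median was on the other side of 0, at 0.21.

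TP63, the master factor of stratified epithelium, rose in TIGK from 289, 242 and 241 CPM to 446, 399 and 349.7 CPM. In HaCaT it measured 254, 236 and 253 CPM at 0 h and 228, 265 and 233 CPM at 6 h, overlapping. The line difference was -0.66 ± 0.14 (adjusted p = 0.0154), and it was not called without HaCaT 0 h A, HaCaT 6 h A, HaCaT 6 h C, TIGK 0 h B or TIGK 6 h A, where the adjusted p lay between 0.0506 and 0.0584. With LAMA3 and LAMB3 it made 3 of 12 basal keratinocyte genes called lower, against 0.534% of all genes. KRT6A, the keratin induced at wound edges, measured 7552, 7583 and 6924 CPM in TIGK at 0 h and 10741, 10566 and 9245 CPM at 6 h. HaCaT held 6715, 7051 and 7119 CPM at 0 h and 7121, 6457 and 6846 CPM at 6 h. The KRT6A line difference was -0.50 ± 0.09 (adjusted p = 0.00711), which is uncertain because the near-identical copies KRT6B and KRT6C can share its reads, and limma on log2(FPKM + 1) gave a difference of about the same size, -0.52, with an adjusted p of 0.151.

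Further single genes came from the FOXO, clock and NOTCH lists. TSC22D3, a glucocorticoid-induced regulator, fell in HaCaT from 84.8, 88.8 and 80.9 CPM to 53.9, 57 and 62.2 CPM and measured 48.2, 36.8 and 41.6 CPM at 0 h and 54.4, 46.1 and 44.1 CPM at 6 h in TIGK. Its line difference was -0.75 ± 0.14 (adjusted p = 0.00886). PER1, a clock gene that also responds to glucocorticoids, rose in TIGK from 119, 125 and 111 CPM to 160.4, 158 and 140.2 CPM, and its line difference was -0.56 ± 0.12 (adjusted p = 0.0234). JAG2, a NOTCH ligand, passed the test in neither line and had a line difference of -0.47 ± 0.11 (adjusted p = 0.0325). Neither PER1 nor JAG2 held its call when single libraries were left out. PER1 lost it without any 1 of 8 libraries (all but TIGK 0 h A, TIGK 0 h B, TIGK 6 h C and HaCaT 0 h B), with an adjusted p of up to 0.0904, and JAG2 without any 1 of 10 (all but TIGK 0 h B and TIGK 6 h C), with up to 0.114.

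The largest negative differences included genes outside these lists. WNT9A, a WNT ligand, measured 5.47, 7.67 and 6.81 CPM in TIGK at 0 h and 13.2, 15.4 and 14.6 CPM at 6 h, with a line difference of -1.24 ± 0.21 (adjusted p = 0.00347). MN1, a transcriptional regulator, measured 111, 114 and 91.2 CPM at 0 h and 225, 213 and 164 CPM at 6 h in TIGK, and 79.3, 77.6 and 87.4 CPM at 0 h and 64.3, 77.1 and 77 CPM at 6 h in HaCaT. The lines differed in it by -1.10 ± 0.18 (adjusted p = 0.00213). CSPG4, a cell surface proteoglycan, rose in TIGK from 83.3 ± 5.19 to 128 ± 5.33 CPM and measured 8.48 ± 0.69 and 6.31 ± 1.46 CPM in HaCaT, a line difference of -1.05 ± 0.18 (adjusted p = 0.00347). DUSP10, a phosphatase of stress-activated kinases, differed by -1.09 ± 0.20 and FAM43A by -1.04 ± 0.19, with adjusted p of 0.00536 and 0.0063. OXTR, the oxytocin receptor, differed by -1.13 ± 0.26 (adjusted p = 0.0432), and its call was lost without any 1 library except TIGK 6 h C, with an adjusted p of up to 0.155.

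Among the largest positive differences, most came from a fall in TIGK. VGF, at chr7:101162509-101165593, encodes a secreted neuropeptide precursor. It measured 113, 161 and 98.5 CPM in TIGK at 0 h and 39.8, 36.2 and 30.2 CPM at 6 h, a 3.51-fold fall, against 13.1, 12.2 and 12.8 CPM at 0 h and 15.2, 14.2 and 15.7 CPM at 6 h in HaCaT. Between the lines, the difference was 2.05 ± 0.24 (adjusted p = 2.88e-05). CEMIP, which binds and breaks down hyaluronan, fell in TIGK from 6.76, 8.31 and 8.93 CPM to 2.46, 1.44 and 3.17 CPM while HaCaT measured 38.9, 32.9 and 39.1 CPM at 0 h and 31.9, 41.9 and 38.1 CPM at 6 h. Its line difference was 1.77 ± 0.30 (adjusted p = 0.00312), though limma on log2(FPKM + 1) did not call it (adjusted p = 0.0755). FOXO4, a forkhead factor restrained by growth signalling, fell in TIGK from 38, 30.9 and 32.7 CPM to 14.6, 15.3 and 14.6 CPM, and differed by 1.27 ± 0.25 (adjusted p = 0.00943). OSBP2, a sterol-binding protein, fell in TIGK from 21.2 ± 1.33 to 9.58 ± 2.1 CPM, with a line difference of 1.24 ± 0.21 (adjusted p = 0.00364).

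BMP6, a bone morphogenetic protein that signals in stratified epithelium, rose in HaCaT and was not called in TIGK. It measured 11.7, 8.61 and 12 CPM in HaCaT at 0 h and 20.8, 20.6 and 19.7 CPM at 6 h, and 13.6, 14.2 and 8.4 CPM at 0 h and 10.6, 9.46 and 8.68 CPM at 6 h in TIGK, where the times overlapped. The lines differed by 1.24 ± 0.25 (adjusted p = 0.0158), and without TIGK 0 h B it was 1.11 with an adjusted p of 0.0591. DZIP3, a ubiquitin ligase, passed the test in neither line and differed by 1.24 ± 0.23 (adjusted p = 0.0074), from 16.8 ± 1.13 to 11.9 ± 1.21 CPM in TIGK and from 2.74 ± 0.287 to 4.6 ± 0.575 CPM in HaCaT.

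Other large positive values rest on few reads or on single libraries. HS6ST2, a heparan sulfate sulfotransferase, had 0 reads in the 3 HaCaT libraries at 0 h and 6, 5 and 5 reads at 6 h, at least 1.75-fold higher against a floor of 3 counts in each library. TIGK held 58.1 ± 3.53 and 51.9 ± 2.73 CPM of it, and the line difference was called (adjusted p = 0.00617) at a HaCaT mean of 0.33 ± 0.0439 CPM at 6 h. With limma on log2(FPKM + 1), where so low a level counts for little, it was 0.23 (adjusted p = 0.447). GPR89B is uncertain because its near-identical copy GPR89A can share its reads. It fell in TIGK from 10.5, 10.9 and 18.1 CPM to 5.19, 4.39 and 4.7 CPM, a change of -1.48 ± 0.38 (adjusted p = 0.0268). In HaCaT it measured 5.51, 6.38 and 11.5 CPM at 0 h and 13, 7.33 and 25.3 CPM at 6 h. The HaCaT times overlapped, and the HaCaT change of 0.96 ± 0.37 was not called (adjusted p = 0.499). The lines differed in it by 2.44 ± 0.53 (adjusted p = 0.0245) and it was lost without TIGK 0 h C, TIGK 6 h A, TIGK 6 h B, HaCaT 0 h A, HaCaT 0 h B or HaCaT 6 h C, with an adjusted p of up to 0.122, and with limma (0.151). COBL, an actin nucleator, was lower at 6 h in both lines. In TIGK it fell from 3.11 ± 0.633 to 0.742 ± 0.354 CPM, with 17, 7 and 12 reads at 6 h. In HaCaT it measured 18.1 ± 2.03 and 12.9 ± 0.156 CPM without overlap, a change of -0.48 ± 0.17 that was not called (adjusted p = 0.428). The COBL line difference was 1.58 ± 0.33 (adjusted p = 0.0169). Its call was lost without TIGK 0 h B, TIGK 6 h B or HaCaT 0 h A (up to 0.109), and the sign was opposite, -0.04, on the log2(FPKM + 1) scale.

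MCF2L, PSD3 and BTBD11 were also called higher, with adjusted p of 0.0467, 0.0479 and 0.0284 and line differences of 1.86 ± 0.45, 1.23 ± 0.30 and 1.10 ± 0.24. All 3 fell in TIGK. MCF2L, an exchange factor for small GTPases, fell there from 10.1 ± 0.18 to 4.39 ± 0.524 CPM. In HaCaT it had few reads, 13, 11 and 7 at 0 h and 17, 21 and 12 at 6 h, which overlapped in CPM. The HaCaT change of 0.66 ± 0.37 was not called (adjusted p = 0.743). MCF2L lost its call without any 1 library except HaCaT 6 h C, with an adjusted p of up to 0.164. PSD3, an exchange factor for ARF6, lost it without any 1 of 10 libraries (all but TIGK 6 h C and HaCaT 6 h C), with up to 0.166. BTBD11 lost it without any 1 of 8 (all but TIGK 0 h C, TIGK 6 h C, HaCaT 0 h A and HaCaT 0 h B), with up to 0.0904.

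Other groups had members that changed in TIGK while 0 were called between the lines in the main edgeR fit to all 18 libraries. In that fit 0.752% of all genes were called. Of 39 interferon-stimulated genes 8 fell in TIGK, against 1.12% of all genes, and 0 passed the test in HaCaT, where 0.201% of all genes did. A line difference above 0 was found in 36 of them, against 9050 of all 17409 genes, and the median of the 39 was 0.31. The median was 0.15 without TIGK 6 h C and 0.19 without TIGK 0 h A. Members called higher were 2 without HaCaT 0 h B, 1 with DESeq2 and 4 with no filter on low counts. Over all genes these fits called 116, 307 and 293 in either direction, against 131 in the main fit. Their levels were often far apart before the scratch, as for OAS1, an antiviral enzyme, at 65.9 CPM in TIGK and 18 CPM in HaCaT. Its line difference was 0.53 ± 0.20 (adjusted p = 0.309). Of 33 G2/M genes 5 fell in TIGK, against 1.12% of all genes. In 31 of them the line difference was above 0, against 9050 of all 17409 genes, with a median of 0.26 and 0 called. Without TIGK 6 h C 3 were called higher, and 1 with DESeq2 or with no filter. Over all genes these fits called 68, 77 and 106 higher, against 38 in the main fit. HMMR, a spindle protein, is one of the 5, at 0.54 ± 0.19 (adjusted p = 0.272). MKI67, the proliferation marker, overlapped between the times in both lines, at 0.07 ± 0.16 (adjusted p = 0.934). OAS1 and HMMR were chosen for mention after their values were seen.

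Other lists gave no call in the main fit and medians nearer that of all genes. With 0.752% of all genes called, 0 calls in lists of these sizes do not set them apart. The S phase list had 0 of 31 called and a median of 0.01, and ribosome biogenesis 0 of 26 with 0.02. The p53 list had 0 of 22 called, although SFN, its most abundant member and a checkpoint protein, rose in TIGK from 754 ± 35 to 1187 ± 19.8 CPM. The SFN line difference was -0.39 ± 0.11 (adjusted p = 0.143). For YAP and TAZ targets it was 0 of 16 with a median of -0.14, for EGF receptor and ligands 0 of 11 with -0.04, and for inflammatory cytokines and chemokines 0 of 19 with 0.04. EGFR itself spanned 616 to 773 CPM over the TIGK libraries of both times and 1152 to 1470 CPM over those of HaCaT, with a line difference of -0.06 ± 0.15. A miss of the threshold does not show that the lines responded alike.

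The levels at 24 h, which the contrast does not use, are given as a description. MMP1 measured 3.93, 5.29 and 4.65 CPM in TIGK at 24 h, below its libraries at 6 h and at 0 h. PMEPA1 measured 23.4, 23.6 and 24.2 CPM in TIGK and 138, 145 and 138 CPM in HaCaT. FN1 measured 1689, 1699 and 1312 CPM in TIGK, a range that spans its libraries at 6 h, and HMGCS1 266, 272 and 261 CPM in TIGK, between its levels at 0 h and 6 h. VGF measured 12.1, 9.21 and 13.3 CPM in TIGK, below its level at 6 h.

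**Figure D4:**
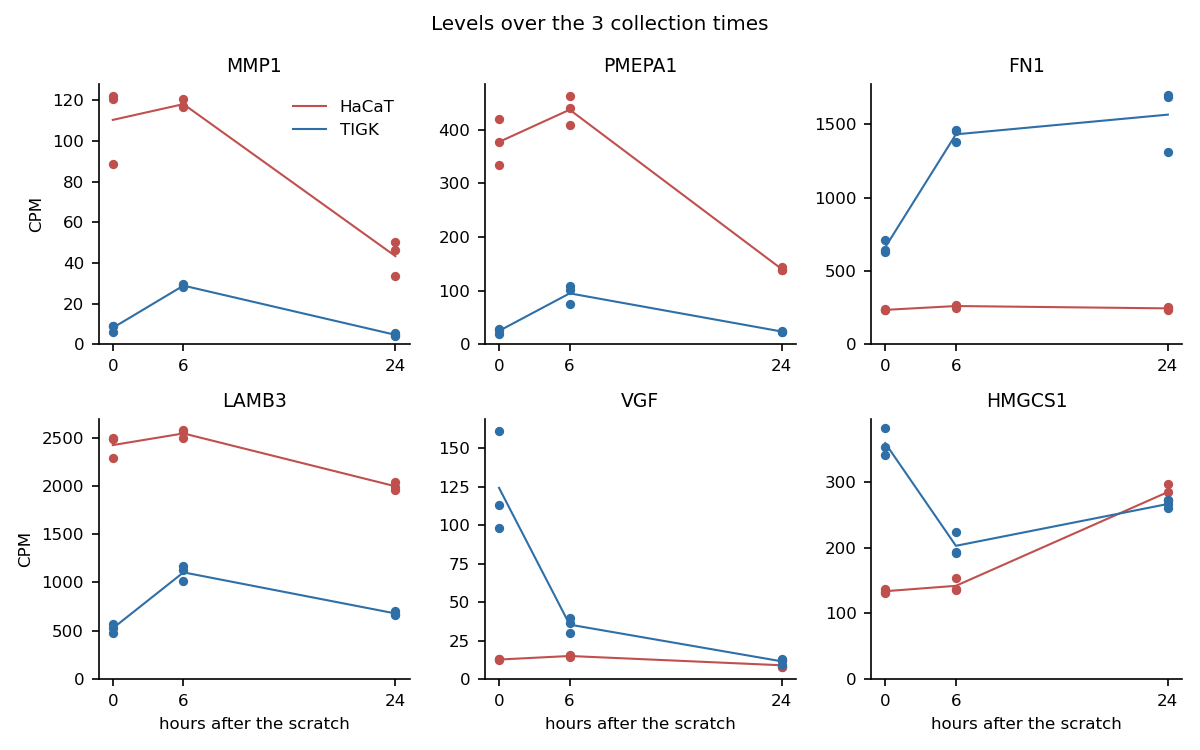
Level in CPM (vertical axes, each from 0) of 6 genes in every library at 0, 6 and 24 h (horizontal axis, hours after the scratch), with lines joining the means of 3 libraries in HaCaT (red) and TIGK (blue). TIGK MMP1 is higher at 6 h than at 0 h and 24 h, TIGK FN1 stays high at 24 h, and the lines' HMGCS1 levels are close at 24 h.

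The number of called genes depended on single libraries. Without TIGK 6 h C, 260 genes were called, 127 of them among the 131. Without TIGK 6 h B, 68 were called, 67 of them among the 131. The other counts past 1.5 times were 86 without TIGK 0 h B, 71 without TIGK 6 h A, 71 without HaCaT 0 h A, 79 without HaCaT 0 h C, 72 without HaCaT 6 h A, 85 without HaCaT 6 h B and 75 without HaCaT 6 h C. Without both TIGK libraries of letter C, 194 genes were called, and 34 of the 37 named called genes kept their call, GPR89B, MCF2L and OXTR being the exceptions. Of the 37, 25 were called in all 12 fits without 1 library, among them PMEPA1, LAMB3, LAMA3, FN1, MMP1, JUNB, SERPINE2, HMGCS1 and VGF.

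**Figure D5:**
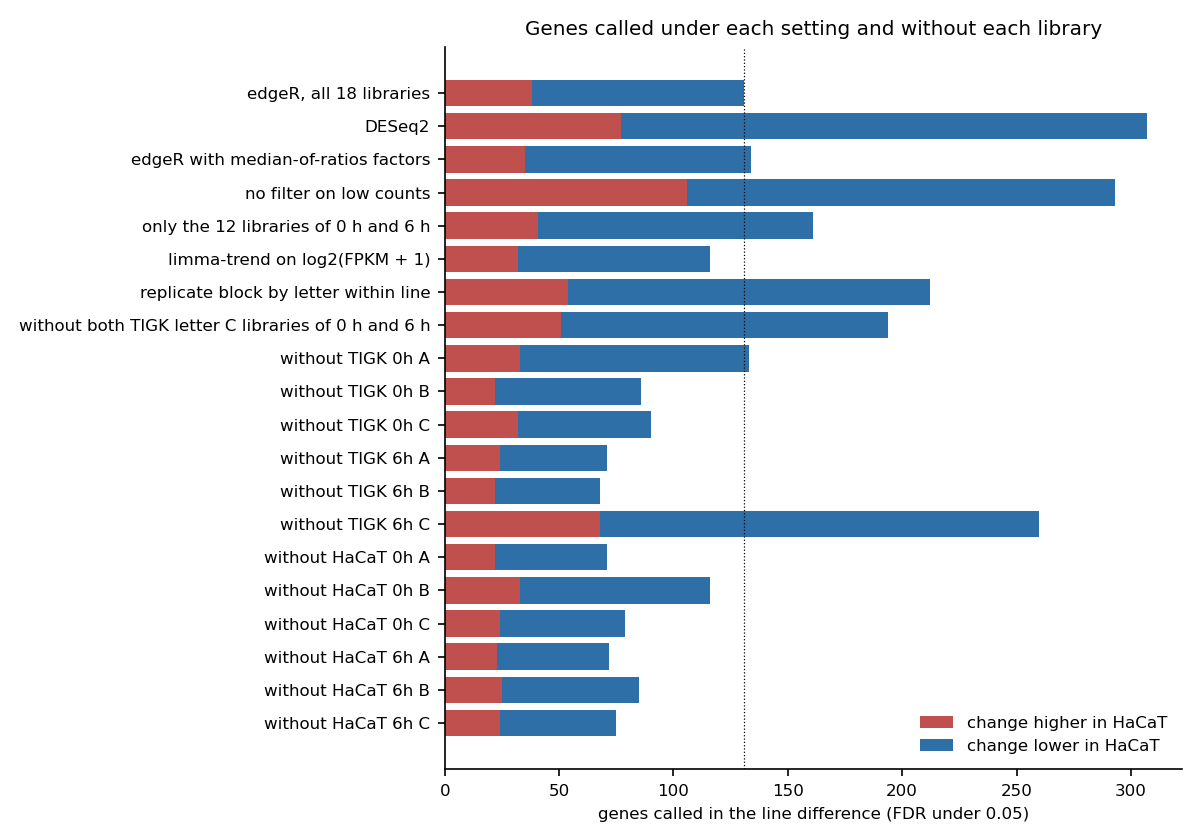
Number of genes called in the line difference (horizontal axis) with edgeR on all 18 libraries, under each alternative setting and without each of the 12 libraries, split into genes with a higher (red) and a lower (blue) change in HaCaT. The dotted line marks 131, and the counts run from 68 without TIGK 6 h B to 307 with DESeq2, with the lower genes outnumbering the higher ones throughout.

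The authors' deposited tables of each line's change at 6 h list 154 genes for HaCaT (87 higher and 67 lower) and 385 for TIGK (293 and 92). The largest adjusted p in them is 0.00954 for HaCaT and 0.00991 for TIGK, a stricter limit than the 0.05 used here. At 0.05, 35 genes were called here in HaCaT and 630 in TIGK. The authors' list is thus the longer for HaCaT and the shorter for TIGK, and the reason was not tested. Of the 93 genes called lower here, the authors' deposited table for TIGK lists 73 and that for HaCaT 18. Of the 38 called higher, they list 27 and 4.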

How the data were processed

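RNA of HaCaT and TIGK cells was extracted with Trizol, and every library was built from 1 µg of total RNA, per the labels' protocols. The submitters' processing notes name featureCounts 1.5.0-p3, HISAT2 2.0.5 and StringTie 1.3.3b and the build hg38, and what each tool did, the annotation release and the use of strand are not given in the sources used here. The authors deposited whole-number read counts per gene and FPKM values for the 18 libraries. They also deposited tables of each line's response with log2 fold changes and p-values per gene, from which counts of listed genes were taken. Column letters are not tied to the replicate numbers of the labels. Nothing says that the 3 libraries of a group were separate cultures, and if they were not, the p-values reflect technical spread alone.

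Tests on the counts used R 4.3.3 and edgeR 4.0.16 (filterByExpr, TMM, quasi-likelihood fit of 6 group means to all 18 libraries, 12 residual degrees of freedom, prior count 0.125). Every adjusted p is this two-sided value, adjusted by Benjamini-Hochberg over all genes tested, unless another tool is named. The SE is the absolute log2 fold change divided by the square root of F, an approximation. Floors cover counting error only. Genes were named by rule: the 12 largest line differences each way among called protein-coding genes with a unique symbol that reached 10 CPM in any of the 4 groups, plus from each list up to 3 called members with the lowest adjusted p, or the most abundant member where none was called. Some genes are not reported here and were left out of the named genes, without replacement, and of the list counts. The 30 lists, 5 marker lists and the rule were chosen with earlier results of these data known. Alternatives were DESeq2 1.42.0, median-of-ratios factors, no filter on low counts, the 12 libraries alone, limma 3.58.1 (limma-trend) on log2(FPKM + 1), a replicate block, and leaving out libraries. Promoters in the table matched 67 of the 93 lower and 29 of the 38 higher genes, under 80%, so motif shares over called genes were void and are not given.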

Additional observations from a re-analysis of the deposited data

Results flagged for a closer look

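Each of the 37 named genes called between the lines is a result in which the same contrast, 6 h against 0 h, gave a different change in HaCaT and in TIGK by the test of the difference itself. The line difference (change in HaCaT minus change in TIGK, log2, edgeR) was above 0 for 15 of them. Its values in this group were HS6ST2 5.64, GPR89B 2.44, VGF 2.05, MCF2L 1.86, CEMIP 1.77, COBL 1.58, FOXO4 1.27, BMP6 1.24, DZIP3 1.24, OSBP2 1.24, PSD3 1.23, BTBD11 1.10, SERPINE2 1.03, HMGCS1 0.91 and MSMO1 0.57.

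It was below 0 for the other 22. Its values there were MMP3 -2.11, MMP1 -1.76, PMEPA1 -1.73, WNT9A -1.24, FOXN1 -1.21, OXTR -1.13, MN1 -1.10, DUSP10 -1.09, CSPG4 -1.05, FAM43A -1.04, LAMB3 -1.002, JUNB -0.77, FOSL2 -0.63, FN1 -0.96, LAMA3 -0.79, SKIL -0.96, KRT6A -0.50, TGM1 -0.80, PER1 -0.56, TSC22D3 -0.75, JAG2 -0.47 and TP63 -0.66. Most of these differences pair a called change in TIGK with a HaCaT change that did not pass its own test. FOXN1, TGM1, TSC22D3, BMP6 and HS6ST2 changed in HaCaT and were not called in TIGK, and SERPINE2 changed in both lines in opposite directions. The value for HS6ST2 is a fitted one that depends on the prior count, since its HaCaT libraries at 0 h held no reads.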

How the results depend on the processing

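The direction of the line difference was the same in every fit for the 37 named called genes except COBL, which was -0.0419 with limma on log2(FPKM + 1). The call was kept in all fits for 21 of the 37, in all 12 fits without 1 library for 25 and in all other alternatives for 27. OXTR lost its call with no filter on low counts (adjusted p = 0.0839) and PSD3 with median-of-ratios factors (0.0507). The limma fit lost COBL (0.908), and also HS6ST2, GPR89B, CEMIP, BTBD11, MMP3 and KRT6A, with adjusted p from 0.0755 to 0.447. The cause was not tested.

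The number of genes called between the lines was 131, with 38 higher and 93 lower in HaCaT. DESeq2 gave 307 (77 higher, 230 lower, 127 of the 131 among them), and no filter on low counts 293 (106 higher, 187 lower, 125 of the 131). Median-of-ratios factors gave 134, the 12 libraries alone 161, and limma 116 (84 of the 131). Without both TIGK libraries of letter C it was 194, with 143 lower. Leaving out 1 library gave 68 to 260 genes, 22 to 68 higher and 46 to 192 lower. The HaCaT response had 35 genes, 107 with DESeq2, 130 with no filter, 77 without both TIGK libraries of letter C and 4 (without HaCaT 0 h B) to 47 without 1 library. The TIGK response had 630 genes and 350 to 817 without 1 library.

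With the letter as a replicate block within each line, 212 genes were called between the lines (158 lower), 128 of them among the 131, and 70 in HaCaT. OXTR was the named called gene lost under the block (adjusted p = 0.0504). Deviations of libraries with the same letter correlated at 0.417, 0.330 and 0.736 in TIGK and at -0.050, -0.204 and -0.121 in HaCaT, over 9851 genes, so the letters did not pair the libraries in both lines. In TIGK every library at 6 h correlated best with its own letter at 0 h, and in HaCaT none did. At low levels, as for HS6ST2 with 5 to 6 reads in HaCaT, depth limits the precision of the fold.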

Other observations

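Beyond the lists, several called genes act at the cell surface or on the cytoskeleton. They were chosen for mention after their values were seen. Among receptors and ligands, P2RY2, a receptor for extracellular ATP, rose in TIGK from 36 ± 2.44 to 66.8 ± 8.22 CPM and measured 86.7 ± 3.59 and 81.6 ± 4.67 CPM in HaCaT (SD, n = 3), a line difference of -0.98 ± 0.13 (adjusted p = 0.000176). PTHLH, a parathyroid hormone-related peptide of keratinocytes, rose in TIGK from 14.9 ± 2.41 to 37.3 ± 1.2 CPM, with a line difference of -0.98 ± 0.13 (adjusted p = 0.00023). CAVIN1, a coat protein of caveolae, rose in TIGK from 723 ± 10 to 1157 ± 22.8 CPM and measured 1556 ± 58 and 1574 ± 70.3 CPM in HaCaT, a line difference of -0.66 ± 0.09 (adjusted p = 0.000176). GPC1, a heparan sulfate proteoglycan, differed by -0.64 ± 0.10 (adjusted p = 0.00129) and AKAP12, a scaffold for kinases, by -0.82 ± 0.14 (adjusted p = 0.00303). Of genes that act on actin, MRTFA, the co-activator of serum response factor, differed by -0.54 ± 0.13 (adjusted p = 0.0448) and NET1, a RhoA exchange factor, by -0.52 ± 0.10 (adjusted p = 0.00593), both from a rise in TIGK.

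Metabolic genes were among those that fell in TIGK and were called higher in HaCaT. UGP2, which makes UDP-glucose, fell in TIGK from 229 ± 38.3 to 120.4 ± 14.7 CPM and measured 81.7 ± 5.99 and 83.2 ± 3.96 CPM in HaCaT, a line difference of 0.96 ± 0.15 (adjusted p = 0.000911). HAS3, a hyaluronan synthase, fell in TIGK from 68.4 ± 7.5 to 44 ± 3.04 CPM, with a line difference of 0.68 ± 0.12 (adjusted p = 0.0039). PC, pyruvate carboxylase, differed by 0.77 ± 0.15 (adjusted p = 0.00886), and MAOA, monoamine oxidase A, by 0.71 ± 0.12 (adjusted p = 0.00215). The other 2 called genes that fell in HaCaT only, beside FOXN1, TGM1 and TSC22D3, were FGFR3 and PLEKHA6. FGFR3, a growth factor receptor, fell there from 198 ± 14.7 to 145 ± 4.7 CPM and PLEKHA6 from 20.6 ± 2.01 to 13.8 ± 2.22 CPM. PMP22, a membrane protein, was the remaining gene called as risen in HaCaT only, from 0 to 0.393 ± 0.104 CPM, and is given as levels because its HaCaT libraries at 0 h held no reads.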
